A study of Homo sapiens with 6 samples.

Results

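DHODH and 7 other genes of pyrimidine nucleotide synthesis were followed in HK-2 cells, an immortalized human proximal tubular cell line, after knockdown of the chromatin remodeler INO80. The 8 genes are CAD, DHODH, UMPS, CMPK1, CTPS1, CTPS2, UCK1 and UCK2, and each matched a single row by its symbol among the 57905 genes of the deposited table. They were chosen from the pathway when their counts under INO80 siRNA and control siRNA were already known, so that their values in this comparison are a description and not a test. All 8 were among the 15343 genes counted highly enough to be tested.

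RNA-seq of poly(A) RNA covered 3 libraries of cells given a non-targeting control siRNA pool (genotype label WT) and 3 of cells given a siRNA pool against INO80 (genotype label knockdown), all with RNAiMAX, a lipid reagent, and harvested 48 h after transfection. They are called control and knockdown libraries, numbered 1 to 3 as in the labels. Both groups are the same cell line, and the sources used here do not say whether the 3 replicates of a group were separate cultures, so that p-values measure the spread between these libraries, which may be technical.

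Pyrimidine nucleotides are the building blocks of RNA and DNA that carry uracil, cytosine or thymine. Cells make them from glutamine, bicarbonate and aspartate. CAD, a large cytosolic protein with several enzyme activities, catalyses the opening steps. DHODH, on the inner mitochondrial membrane, oxidises dihydroorotate to orotate and passes the electrons to ubiquinone of the respiratory chain. UMPS then turns orotate into UMP, CMPK1 phosphorylates UMP and CMP, and CTPS1 and CTPS2 convert UTP to CTP. UCK1 and UCK2 belong to the salvage route and phosphorylate uridine and cytidine taken up or recycled by the cell.

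The start regions of DHODH and CAD are shown because these were the only members whose 3 knockdown libraries all lay outside the range of the 3 control libraries. The sequences are those of RefSeq on GRCh38.p14, from 250 bases before to 50 bases after the annotated start, both on the plus strand, at chr16:72008494-72008793 for DHODH and chr2:27217119-27217418 for CAD. Capitals mark the E-box CACGTG and the GC box GGGCGG, read on both strands.
DHODH: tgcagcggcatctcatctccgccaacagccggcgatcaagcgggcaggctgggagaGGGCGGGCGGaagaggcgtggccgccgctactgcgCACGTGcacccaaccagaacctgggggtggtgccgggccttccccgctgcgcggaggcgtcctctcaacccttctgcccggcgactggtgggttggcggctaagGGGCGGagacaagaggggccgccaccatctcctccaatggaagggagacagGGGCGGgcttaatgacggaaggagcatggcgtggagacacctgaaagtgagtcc
CAD: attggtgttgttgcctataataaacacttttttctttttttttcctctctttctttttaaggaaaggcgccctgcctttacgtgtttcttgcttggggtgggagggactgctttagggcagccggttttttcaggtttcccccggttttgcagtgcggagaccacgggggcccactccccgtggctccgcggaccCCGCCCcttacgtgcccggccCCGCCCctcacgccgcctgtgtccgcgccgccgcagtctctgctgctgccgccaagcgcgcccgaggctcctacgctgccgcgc

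All 8 members matched the RefSeq promoter table, with 10 start regions of 300 bases in all. The E-box, a sequence bound by MYC and related factors, was found in the start region of 1 member, DHODH, with its leftmost base at -159 relative to the start. It was found in 7.26% of all 35116 such regions. The GC box was found in 6 of the 8 members and in 44.95% of all regions. DHODH carried 4 of them, of which those at -194 and -190 overlap each other, and CAD carried 2. The CCAAT box (CCAAT) was found in 3 members (CAD, DHODH and UCK2) and in 34.6% of all regions. An E2F motif (TTTNGCGC) and a YY1 motif (AAGATGG) were found in none of the 8 members, and in 1.79% and 5.84% of all regions. Among the members, the only matches that overlapped were GC boxes with each other. A member was counted if any of its start regions held a match, whereas the percentages are per region, so these are unlike units. For CTPS1 and CTPS2 only part of the start regions held a GC box. A match describes the letters of this window only.

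The libraries held between 16829273 and 23784599 counts on genes, and INO80 itself fell from 49.9 ± 3.89 to 13.3 ± 1.12 CPM (SD, n = 3 each). Its edgeR log2 fold change was -1.90, with a standard error of 0.0956 and an adjusted p of 0.000161. CPM is the count scaled to the same total in every library, after TMM adjustment of the totals. The libraries numbered 1 stood apart from the others in both groups, with scores of -25.9 and -22.8 on the first principal component against 10.4 to 13.4 for the other 4. Of the markers checked against the label, the mean FPKM reached 1 for 5 of 6 epithelial genes, but among 11 proximal tubule genes for PAX8 and GGT1 alone, and HNF4A had 0 counts in every library. It did so for 2 of 4 fibroblast genes (LUM and DCN), for 0 of 3 endothelial genes and for 0 of 4 leukocyte genes. The summed FPKM of the fibroblast list ran from 46.5 to 111 in the control and from 43.8 to 95.1 in the knockdown libraries, with the highest value of each group in the library numbered 1, and the part of these genes in the members' levels was not tested.

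In the control libraries the 8 genes spanned a wide range of levels per length, given as FPKM, the count scaled by exonic length and by the total of the library. CMPK1 was the highest, at 51.3 ± 0.960 FPKM (SD, n = 3), followed by CTPS1 at 41.6 ± 5.31 FPKM, CAD at 28.05 ± 0.891 FPKM and UMPS at 22.9 ± 2.81 FPKM. UCK2 had 12.4 ± 0.999 FPKM, UCK1 9.65 ± 1.35 FPKM and CTPS2 6.76 ± 0.161 FPKM. DHODH had the lowest level, at 2.94 ± 0.262 FPKM. No pair of neighbours in this order overlapped in its 3 control values. In FPKM, 94.6% of the tested genes lay below CMPK1, whereas 40.0% lay below DHODH. DHODH, in the middle of the route to UMP, was thus far below the enzymes before and after it in level per length.

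DHODH (ENSG00000102967, on chromosome 16 from 72042487 to 72058954 on the plus strand in the GRCh37 coordinates of the table) was counted 193, 261 and 263 times in control libraries 1, 2 and 3. The knockdown libraries, which held more counts in total than the control library of the same number, gave 166, 190 and 220. In CPM this was 11.8, 12.8 and 13.6 under control siRNA and 8.26, 7.87 and 9.08 under INO80 siRNA. All 3 knockdown values lay below all 3 control values, and DHODH was lower in each of the 3 pairs of the same number, with log2 ratios of -0.51, -0.70 and -0.58. The means were 12.7 ± 0.918 and 8.40 ± 0.620 CPM (SD, n = 3 each), and the fitted log2 fold change was -0.60 (standard error 0.116), that is 0.661 times the control level. In bulk RNA, fewer cells that express a gene and less RNA per cell cannot be told apart. DHODH was the member with the fewest counts, so the counting error was examined by library. The exact 95% Poisson intervals, which cover counting error only, ran from 10.2 to 13.55 CPM in control library 1 and from 7.92 to 10.4 CPM in knockdown library 3. These were the only intervals of opposite groups that met.

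CAD (ENSG00000084774, chromosome 2, 27440258 to 27466811) was the other member without overlap, at a far smaller distance. It was at 234, 241 and 237 CPM in control libraries 1, 2 and 3, and in the knockdown libraries it was at 213.5, 225 and 206 CPM. Every knockdown library was below every control library, with means of 237 ± 3.58 and 215 ± 9.48 CPM (SD, n = 3 each). The fitted log2 fold change was -0.14 (standard error 0.0556), or 9.37% below the control level.

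UMPS (ENSG00000114491, chromosome 3, 124449213 to 124464040) completes the route to UMP. Its level was 70.6, 83.9 and 86.3 CPM in control libraries 1, 2 and 3 and 68.6, 77.0 and 79.3 CPM in the knockdown libraries. It was lower in each pair of the same number, but the groups overlapped, and both libraries numbered 1 were the lowest of their group. The fitted log2 fold change was -0.10 (standard error 0.0913).

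**Figure D1:**
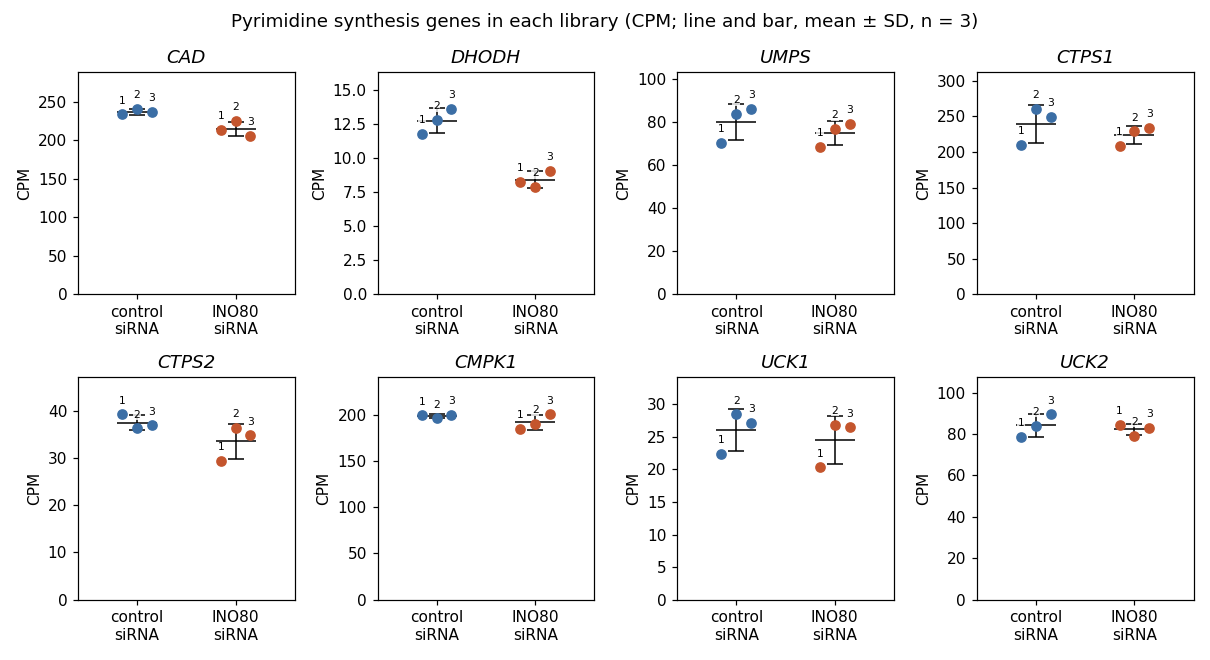
Level of each of the 8 genes in CPM (vertical axes, from 0) in the 3 control siRNA (blue) and the 3 INO80 siRNA libraries (orange), with the replicate number beside each point and the mean ± SD as line and bars. Only DHODH and CAD show no overlap, and UMPS, CTPS1 and UCK1 have their lowest value of each group in replicate 1.

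Downstream of UMP, the kinase CMPK1 (ENSG00000162368, chromosome 1, 47799469 to 47844511) was at 199, 196 and 199.9 CPM in control libraries 1, 2 and 3 and at 184, 190.0 and 200.4 CPM in knockdown libraries 1, 2 and 3. The groups overlapped, since knockdown library 3 was the highest of all 6 libraries. The fitted log2 fold change was -0.05 (standard error 0.0550).

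Of both CTP synthases, CTPS1 (ENSG00000171793, chromosome 1, 41445007 to 41478235) was at 209.9, 261 and 249.5 CPM in control libraries 1, 2 and 3 and at 209, 229 and 234 CPM in knockdown libraries 1, 2 and 3. CTPS2 (ENSG00000047230, chromosome X, 16606126 to 16731059, minus strand) was at 39.2, 36.2 and 36.9 CPM and at 29.35, 36.4 and 34.8 CPM in the same order. For CTPS1 the groups overlapped and replicate 1 was low in both. For CTPS2 the control values lay close together, and knockdown library 1 was lower than any other library. The fitted log2 fold changes were -0.10 (standard error 0.0880) for CTPS1 and -0.16 (standard error 0.0925) for CTPS2. CTPS1 made up 85.9% ± 1.93 of the summed FPKM of the pair in the control group and 86.5% ± 0.718 in the knockdown group (SD, n = 3 each), and the ranges overlapped.

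The uridine-cytidine kinase UCK2 (ENSG00000143179, chromosome 1, 165796768 to 165880855) was at 78.8, 84.0 and 89.6 CPM in control libraries 1, 2 and 3 and at 84.3, 79.3 and 83.05 CPM in knockdown libraries 1, 2 and 3. UCK1 (ENSG00000130717, chromosome 9, 134399188 to 134406655, minus strand) was at 22.4, 28.5 and 27.2 CPM and at 20.3, 26.9 and 26.5 CPM in the same order. Neither separated the groups, and UCK1 moved mainly with the replicate number. The fitted log2 fold changes were -0.03 (standard error 0.0657) for UCK2 and -0.08 (standard error 0.133) for UCK1. UCK2 made up 56.4% ± 2.20 of the summed FPKM of the pair in the control group and 57.25% ± 4.38 in the knockdown group (SD, n = 3 each). The exonic length of UCK2 in the table is 6756 bases and that of UCK1 is 2688 bases, and by raw counts the share of UCK2 was 76.4% and 77.0%.

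Across the 8 members, the log2 fold change was negative in 8, with a median of -0.10, whereas 48.5% of all tested genes had a negative value and the median over all tested genes was 0.0066. Outside DHODH the values lay between -0.16 and -0.03. Of the 8 members, 5 were lower in all 3 pairs of the same number, as were 25.9% of all tested genes. The groups did not overlap for 2 members, both lower, while 22.8% of all tested genes did not overlap and 11.5% did so with the knockdown libraries lower. With an adjusted p under 0.05 (edgeR), 1 member was called, DHODH, against 1.75% of all tested genes, of which 1.49% of the tested genes were lower and 0.261% higher. By its p-value DHODH stood at rank 241 of the 268 genes called. DHODH was not called when any 1 of the 6 libraries was left out, although its log2 fold change then lay between -0.66 and -0.55. Over all genes these fits called between 18 and 146, against the 268.

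Libraries of the same number deviated together in the 2 groups, and the fit was therefore repeated with this number as a block. With the replicate number as a block, 2 members were called, DHODH and CAD, both lower, against 24.8% of all tested genes, 13.4% lower and 11.4% higher. The blocked log2 fold changes were -0.60 (standard error 0.102) for DHODH and -0.14 (standard error 0.0356) for CAD. Because this comparison was known when the genes were chosen, nothing is read from these counts.

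**Figure D2:**
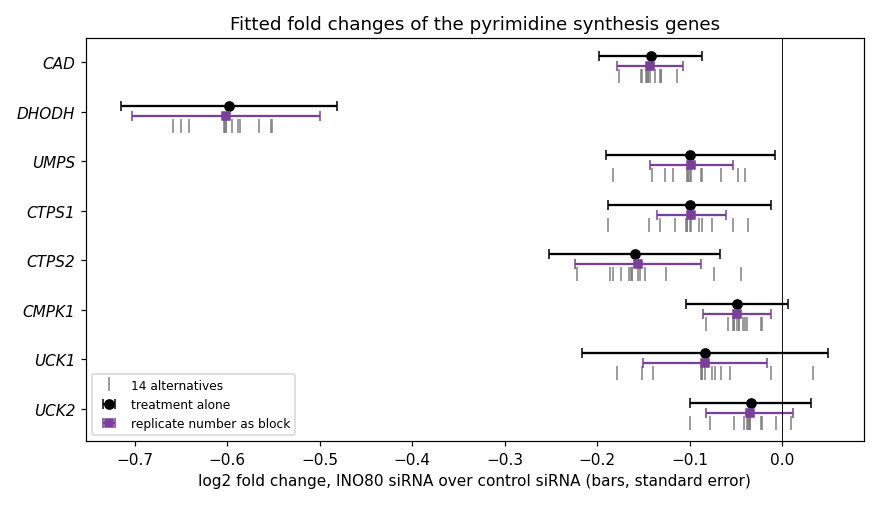
Fitted log2 fold change of each of the 8 genes, INO80 siRNA over control siRNA (horizontal axis), with standard errors as bars, for the fit with treatment alone (circles) and with the replicate number as a block (squares); grey ticks are the 14 alternative fits, which include the blocked fit. DHODH lies between -0.66 and -0.55 in every fit, and the other genes lie between -0.22 and 0.03.

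The replicate number was examined as a comparison of its own, with the treatment kept in the fit. This test was added after the libraries numbered 1 had been seen to stand apart, and the labels do not say what the numbers stand for. The counts of the members were known when they were chosen, so its values for them are a description too. By edgeR's quasi-likelihood test over both replicate terms, 3 of the 8 members differed between numbers, against 26.7% of all tested genes. All 3 were lower in replicate 1, as were 12.8% of all tested genes. The test covers any difference between the numbers, and lower or higher is the sign of replicate 1 against the mean of replicates 2 and 3. UCK1 differed most, by -0.35 on the log2 scale between replicate 1 and the mean of replicates 2 and 3 (standard error 0.0744, adjusted p = 0.00229). UMPS differed by -0.23 (standard error 0.0489, adjusted p = 0.00266) and CTPS1 by -0.21 (standard error 0.0404, adjusted p = 0.000802). For these genes the difference between replicate numbers was larger in size than that between treatments, a contrast that was not tested itself. For DHODH the log2 difference between numbers was -0.10 (standard error 0.111, adjusted p = 0.501), and for CAD it was -0.02 (standard error 0.0381, adjusted p = 0.358).

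Marker genes moved with the replicate number too. Of the 16 S phase markers, 12 differed between numbers by the same test, 11 of them lower in replicate 1, with MCM2 at -0.38 (adjusted p = 1.6e-07, edgeR) and PCNA, the sliding clamp of DNA replication, at -0.26 (adjusted p = 1.15e-05, edgeR). Of the 14 G2 and M phase markers, 10 differed, all lower in replicate 1. The lowest summed FPKM of both lists in each group was that of the library numbered 1.

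Of the 3 tested fibroblast markers, LUM and DCN, both genes of matrix proteoglycans, were higher in replicate 1, by 1.00 (adjusted p = 1.11e-15, edgeR) and 2.49 on the log2 scale (adjusted p = 6.27e-17, edgeR). The remaining tested marker, PDGFRB, went the other way, at -1.31 (standard error 0.470). It was not called (adjusted p = 0.0973, edgeR) and had only 6 to 24 counts per library. The summed FPKM of the list was 111 in control library 1 against 59.9 and 46.5 in the others, and 95.1 in knockdown library 1 against 59.3 and 43.8. LUM made up most of this sum in every library. PDGFRA, also of this list, was at or near 0 in every library. All 5 tested epithelial markers differed between numbers, by sign 3 with replicate 1 lower and 2 with it higher. Among the higher was KRT19, a keratin, at 0.52 (adjusted p = 1.26e-09, edgeR). For KRT8, counted as lower, the difference of replicate 1 was within its standard error, at -0.034 (standard error 0.0366). Of the 4 tested proximal tubule markers, PAX8 was higher, at 0.45 (adjusted p = 4e-09, edgeR), and GGT1 lower, at -0.28 (adjusted p = 2.6e-05, edgeR). The part of these markers in the replicate differences of UCK1, UMPS and CTPS1 was not tested.

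**Figure D3:**
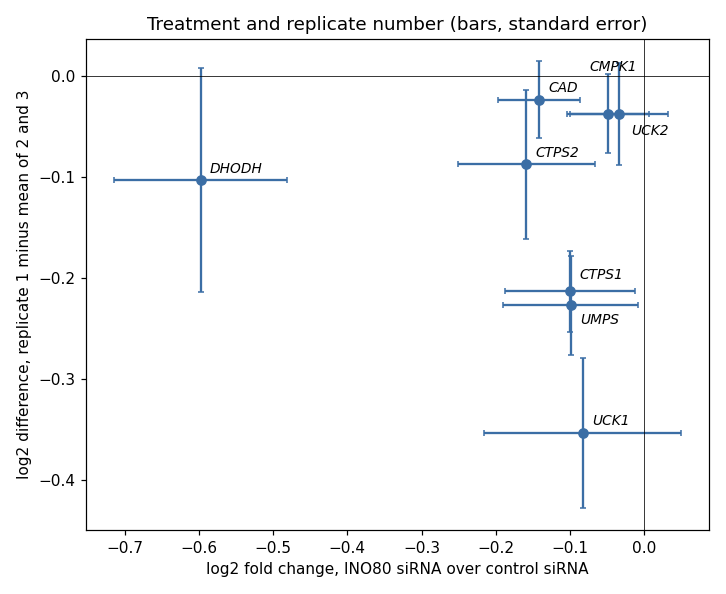
Each of the 8 genes by its log2 fold change between treatments (horizontal axis) and its log2 difference between replicate 1 and the mean of replicates 2 and 3 (vertical axis), with standard errors as bars. DHODH stands apart on the horizontal axis at -0.60, and UCK1, UMPS and CTPS1 lie lowest on the vertical axis, from -0.35 to -0.21.

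Without the pair of libraries numbered 1, the fit gave log2 fold changes of -0.64 for DHODH, -0.15 for CAD, -0.13 for UMPS and -0.14 for CTPS1. The same fit gave -0.02 for CMPK1, -0.04 for CTPS2, -0.07 for UCK1 and -0.10 for UCK2. For CTPS2 the value thus moved from -0.16 to -0.04, and knockdown library 1 was its lowest. DHODH was called in this fit as well.

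The genes around the members were read from the same table. No other gene overlaps DHODH or CAD in its coordinates. The nearest tested gene on the right of DHODH was TXNL4B, 19234 bases away on the other strand, with a log2 fold change of 0.19 (adjusted p = 0.354, edgeR), and on the left RP11-498D10.6, 77385 bases away, with -0.33 (adjusted p = 0.776, edgeR). Neither was called, and the means of TXNL4B were 20.2 CPM in the control and 23.1 CPM in the knockdown libraries. RP11-498D10.6 had only 7 to 20 counts per library, and the standard error of its log2 fold change was 0.442. Directly before CAD, at a distance of 212 bases and on the same strand, lies ATRAID. Its log2 fold change was -0.40 (adjusted p = 0.170, edgeR, and 6.21e-05 with the replicate block). On the other side of CAD, UCN had 0.28 (adjusted p = 0.793, edgeR). Nearest tested genes beside members that were not called were also called with the block. KALRN and ITGB5 beside UMPS and RAPGEF1 beside UCK1 were lower. STIL beside CMPK1 and PRRC2B beside UCK1 were higher. UCK2 shares 225 bases with TMCO1 on the other strand, and UCK1 shares 6 bases with POMT1. Whether the counting used the strand is not given in the sources used here. The remaining overlapping genes were counted at most 2 times in any library, except RP11-525G13.2 within UCK2, which was counted 8 to 23 times.

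The genes whose CPM on the log2 scale followed that of DHODH most closely over the 6 libraries were RPL7P9 (r = 0.998), FARSB (r = 0.997), PNKD (r = 0.996), FOXJ3 (r = 0.994) and TMED9 (r = 0.994), among the 12412 genes whose mean FPKM reached 1. With 6 libraries such values are common, and 471 genes had an r above 0.9. FARSB, a subunit of phenylalanyl-tRNA synthetase, had a log2 fold change of -0.45 between treatments and PNKD one of -0.48, values that their likeness to DHODH in part fixes. RPL7P9 is a pseudogene copy of a ribosomal protein gene, so its count is uncertain. Among the members, CAD was nearest to DHODH, with r = 0.778, and UCK1 was farthest, with r = 0.356. Of the genes compared, 90.4% had a lower r than CAD and 71.2% a lower r than UCK1. These points share their libraries, and the correlations are descriptive.

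Genes that feed or neighbour the pathway were grouped in 7 lists, which together held 98 tested genes. At an unadjusted p under 0.05 there were 14. After adjustment 2 of the 98 were called, both lower, among them PAICS, against 1.75% of all tested genes. In the blocked fit 29 were called, 20 lower and 9 higher, against 24.8% of all tested genes.

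Pyrimidine salvage and breakdown, with 20 of 26 genes tested, had 0 genes called by edgeR and a median log2 fold change of 0.075. At an unadjusted p under 0.05 there was 1, and DESeq2 called 0. The replicate block gave 2 lower and 3 higher genes, 25.0% of those tested, against 24.8% of all tested genes. CMPK2, a mitochondrial UMP-CMP kinase induced by interferon, had a log2 fold change of 0.59 with the block (standard error 0.146, adjusted p = 0.0037, edgeR), and its means were 4.43 ± 1.74 and 6.75 ± 3.69 CPM (SD, n = 3 each). NME7, of the nucleoside diphosphate kinase family, had one of -0.28 (adjusted p = 0.00705, edgeR) and NT5C2, a cytosolic nucleotidase, one of -0.15 (adjusted p = 0.0178, edgeR), both with the block. NME2 was counted 0 times in every library, and its span lies within that of a readthrough gene that also covers NME1.

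In thymidylate and deoxynucleotide synthesis, 18 of 18 genes were tested, and the median log2 fold change was -0.07. By edgeR 0 were called, 1 had an unadjusted p under 0.05, and DESeq2 called 1. The replicate block gave 5 calls, all 5 lower, which is 27.8% of the list. Over all tested genes it called 24.8%, with 13.4% lower. DTYMK, which phosphorylates dTMP, had means of 84.6 ± 7.38 and 64.8 ± 5.87 CPM (SD, n = 3 each) and a log2 fold change of -0.38 (adjusted p = 0.0801, edgeR, and 4.36e-07 with the block). TYMS, thymidylate synthase, had one of -0.18 (adjusted p = 0.341, edgeR, and 0.000567 with the block). MTHFD1, a folate enzyme, had one of -0.13 (adjusted p = 0.334, edgeR, and 0.00754 with the block).

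In purine synthesis and PRPP supply, 18 of 18 genes were tested, with a median log2 fold change of -0.04, and 1 was called. PAICS, a bifunctional enzyme of the purine route, fell from 308 ± 14.1 to 218 ± 13.4 CPM (SD, n = 3 each). The log2 fold change of PAICS was -0.50, with a standard error of 0.0659 and an adjusted p of 0.0147 (edgeR). All 3 knockdown libraries were below the control libraries. Without control library 2, control library 3, knockdown library 2 or knockdown library 3, PAICS was not called, with an adjusted p of 0.0916, 0.0852, 0.0653 and 0.0714 (edgeR). Its log2 fold change was then -0.462, -0.502, -0.518 and -0.525. Over all genes the same fits called 25, 18, 47 and 23, against 268 with all libraries. Under the replicate block 6 genes of the list were lower and 2 higher, 44.4% of the list, against 24.8% of all tested genes. The lower ones included ATIC, which completes the purine ring (-0.36, adjusted p = 3.28e-07, edgeR), and ADK, adenosine kinase (-0.26, adjusted p = 0.000551, edgeR), both given as blocked log2 fold changes.

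In aspartate and glutamine supply, 12 of 12 genes were tested, with a median log2 fold change of 0.05. By edgeR 1 was called, a lower gene that is not reported by name here. The replicate block gave 1 lower and 1 higher gene, 16.7% of the list, against 24.8% of all tested genes. The higher one was ASNS, asparagine synthetase, by 0.32 on the log2 scale with the block (adjusted p = 0.000554, edgeR). GOT2, which makes aspartate in mitochondria, was not called, with a blocked log2 fold change of -0.09.

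DHODH hands its electrons to ubiquinone, and both the synthesis of ubiquinone and a list of genes of other dehydrogenases that reduce it were examined. This list leaves out the NADH dehydrogenase of the respiratory chain. It counts the succinate dehydrogenase subunits SDHA, SDHB, SDHC and SDHD as separate genes. In ubiquinone synthesis, 13 of 13 genes were tested, and the median log2 fold change was 0.03. By edgeR 0 were called, 1 had an unadjusted p under 0.05, and DESeq2 called 0. Under the replicate block 1 was called, 7.69% of the list, against 24.8% of all tested genes. It was ADCK3 (also named COQ8A), higher by 0.26 on the log2 scale (adjusted p = 0.00152, edgeR). COQ6 and COQ10B had blocked log2 fold changes of -0.25 and -0.11 (adjusted p = 0.157 and 0.155, edgeR). Among the listed dehydrogenase genes, 9 of 9 were tested, and the median log2 fold change was -0.17. By edgeR 0 were called, 3 had an unadjusted p under 0.05, and DESeq2 called 1. Under the replicate block 4 of the 9 were called, all lower, which is 44.4%. Over all tested genes this fit called 24.8%, with 13.4% lower. GPD2, the mitochondrial glycerol-3-phosphate dehydrogenase, had means of 73.8 ± 6.81 and 55.2 ± 6.18 CPM (SD, n = 3 each) and a log2 fold change of -0.42 (adjusted p = 0.0799, edgeR, and 2.53e-07 with the block). SDHC, a membrane subunit of succinate dehydrogenase, had one of -0.28 (adjusted p = 0.111, edgeR, and 8.3e-05 with the block). SQRDL, sulfide-quinone oxidoreductase, had one of -0.19 (adjusted p = 0.260, edgeR, and 0.0165 with the block).

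Several of the list genes named here overlap a counted gene on the other strand, so their counts are uncertain. These are TYMS with ENOSF1, MTHFD1 with ZBTB25, NT5C2 with CNNM2, NME7 with ATP1B1, CMPK2 with RSAD2 and COQ6 with ENTPD5 and FAM161B.

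Among 8 genes of signalling and transcription linked to CAD, edgeR called 0, with 3 at an unadjusted p under 0.05, and DESeq2 called 0. The median log2 fold change was 0.05, and the replicate block gave 2 lower and 2 higher genes. RPS6KB1, which encodes the S6 kinase that phosphorylates CAD, had a blocked log2 fold change of -0.27 (adjusted p = 0.00158, edgeR). MTOR, which acts upstream of this kinase, had one of 0.12 (adjusted p = 0.016, edgeR).

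**Figure D4:**
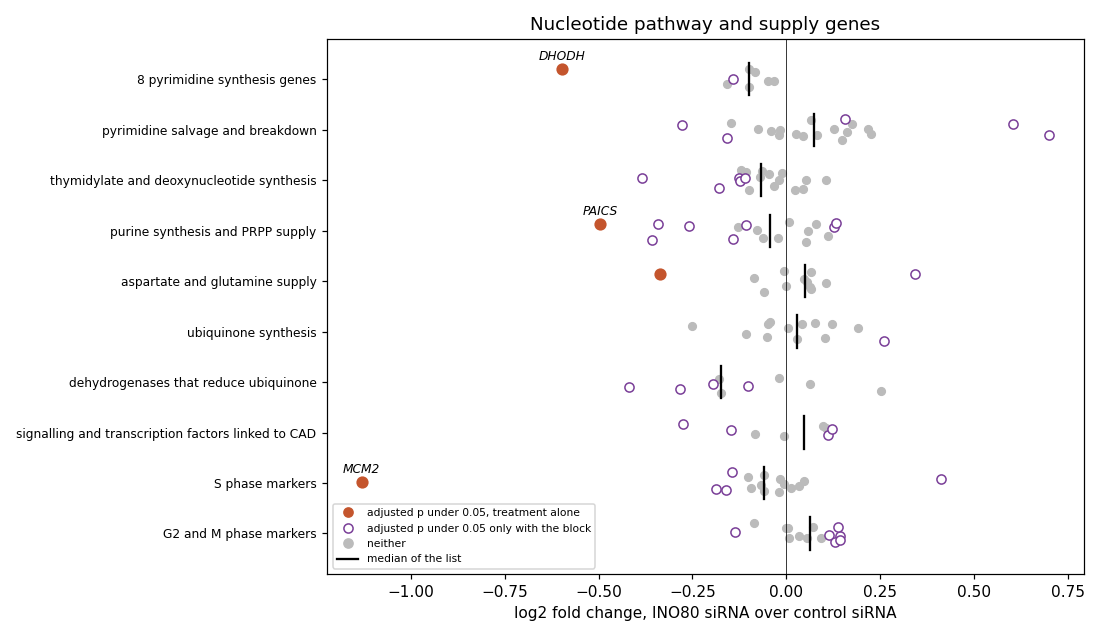
Log2 fold change, INO80 siRNA over control siRNA (horizontal axis), of each tested gene in the fit with treatment alone, for the 8 pyrimidine synthesis genes and for each list (rows), with the median of the row as a vertical line. Filled orange points were called with treatment alone, with DHODH, PAICS and MCM2 labelled, open points only with the replicate block, and grey points in neither fit.

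Nucleotide synthesis is known to rise with proliferation, so markers of the cell cycle were read beside the members. Of 16 S phase markers, 1 was called, MCM2, a subunit of the replicative helicase, which fell from 252 ± 36.4 to 115 ± 17.0 CPM (SD, n = 3 each). The log2 fold change of MCM2 was -1.13, with an adjusted p of 0.00852 (edgeR). It was not called without control library 2, control library 3 or knockdown library 3, where its adjusted p was 0.0527, 0.063 and 0.0574 (edgeR). It overlaps 29 bases of TPRA1. The median over the S phase markers was -0.06. In the blocked fit 4 were lower and 1 higher, 31.2% of the list, against 24.8% of all tested genes. Among them were MCM5 at -0.19 (adjusted p = 0.000365, edgeR) and CCNE2 at 0.41 (adjusted p = 6.83e-05, edgeR). Of 14 G2 and M phase markers, edgeR and DESeq2 called 0, 0 had an unadjusted p under 0.05, and the median was 0.06. With the block, 1 was lower and 5 higher, 42.9% of the list, against 24.8% of all tested genes. CDK1, CCNA2 and TPX2 were among the higher at log2 fold changes of 0.14, 0.13 and 0.14. The summed FPKM of the S phase list ran from 662 to 794 in the control and from 618 to 753 in the knockdown libraries, lowest in the library numbered 1 of each group, and the part of the cell cycle in the members' levels was not tested. CCNE2 overlaps INTS8 and NDUFAF6, and CCNA2 overlaps EXOSC9, both on the other strand.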

How the data were processed

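Libraries were made from poly(A) RNA with a directional kit and sequenced as paired ends. The authors deposited whole-number read counts per gene, without normalization, and FPKM values per gene. All 347430 deposited FPKM values equalled the count divided by exonic length and library total, within 0.006. The submitters' processing notes name HISAT2 2.0.1, HTSeq and hg19, while the paper names ELAND and hg38. The coordinates of the table are GRCh37, and none were converted.

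In R 4.3.3, counts were filtered with filterByExpr of edgeR 4.0.16, scaled by TMM and tested by the quasi-likelihood test with treatment alone (the paper compares groups in general by Student's test and gives none specific to the RNA-seq). P-values were adjusted over 15343 genes (Benjamini-Hochberg), and a gene was called with an adjusted p under 0.05. For edgeR, the standard error given was derived from the test. It is the size of the log2 fold change divided by the square root of its quasi-likelihood F statistic. Depth was 16829273 to 23784599 counts. Intervals cover counting error only.

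The deviations of libraries of the same number from their group means correlated across genes by 0.639, 0.446 and 0.427 (log2(CPM + 0.5)), which was taken as pairing, and the largest value for different numbers was 0.165. Alternatives were median-ratio scaling, no filter, a mean FPKM of at least 1, DESeq2 1.42.0, limma 3.58.1 on log2(FPKM + 0.1), the replicate block and each library left out. Leaving out both libraries numbered 1, DESeq2 with the block and the test of replicate number were added after seeing the data. The members and lists were chosen with earlier results of these data known.

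The genes named are the members, INO80, list genes called or among the 3 smallest blocked p-values of a list, genes that overlap a member, the nearest tested genes beside DHODH, and the 5 genes most correlated with DHODH. ATRAID, the other genes named beside CAD, UMPS, CMPK1 and UCK1, and the markers named for replicate number were named after their values were seen. Some list genes that this rule names are not reported here, but they remain in the counts and medians. Where a symbol had 2 rows (SDHD, AQP1), the row with more counts was used. PECAM1 was not analysed here. On data simulated from these libraries for treatment alone, edgeR recovered 93 of 100 genes changed by 1 on the log2 scale and 100 of 100 changed by 2. The changed genes were drawn from the better counted ones. Neither smaller changes, such as those of the members, nor pairing of the libraries were simulated for this fit.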

Additional observations from a re-analysis of the deposited data

How the results depend on the processing

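The log2 fold change of DHODH was negative in all 14 alternative fits, from -0.66 to -0.55, and DHODH was called in 7 of them. That of CAD was negative in all 14, from -0.18 to -0.11, and CAD was called in 2. UMPS, CTPS1, CTPS2 and CMPK1 were also negative in all 14, and UCK1 and UCK2 in 13 each, with highest values of 0.03 and 0.01. Of the 8 members, 1 was called in the reported fit, 2 with the replicate block in edgeR or DESeq2, 0 with limma on log2(FPKM + 0.1), and 0 in each fit without 1 library. Of the 98 genes of the pathway lists, 2 were called in the reported fit, 29 with the replicate block in edgeR and 14 in DESeq2, 5 without a filter, with DESeq2 or without both libraries numbered 1, and 0 with limma. Without 1 library, the number lay between 0 and 2.

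Over all genes, 268 were called in the reported fit, 708 without a filter, 637 with DESeq2, 3798 with the replicate block, 1852 with DESeq2 and the block, 528 without both libraries numbered 1, and 3 with limma. Without 1 library, between 18 and 146 were called. Unadjusted, 2514 genes had a p under 0.05 with edgeR and 2210 with limma, among them 10 list genes and 1 member with limma. The reported calls were 228 lower and 40 higher, and those of the edgeR block 2050 lower and 1748 higher. By raw counts instead of FPKM, the share of UCK2 beside UCK1 was 76.4% under control siRNA and 77.0% under INO80 siRNA, a shift set by the lengths of the genes. The block changed no call of a member other than CAD. DHODH rested on 166 to 263 counts per library, the smallest depth among the members. The causes of the other differences were not tested.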
